A study of Mus musculus with 2 samples.

Results

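Of the 31053 gene names measured in the oligodendrocyte lineage of the optic nerve, 8 encode proteins of vesicle release and are described here by cell type, injury and sequencing depth: Unc13c, Unc13b, Stxbp3, Syt4, Syt11, Snap25, Vamp2 and Vamp3. They were chosen by name, with their levels in these data already known, so the levels and ratios below are a description and none of them serves as a test. The scRNA-seq experiment compared 5 uninjured optic nerves with the injury site of 5 nerves after optic nerve crush (ONC), a lesion that disrupts the axons of retinal ganglion cells, with 1 library per condition. Both libraries came from wild-type 129S1/SvlmJ mice. The mice were 10 weeks old with ONC at 8 weeks by the series text, but postnatal day 56 by the sample labels. Both samples carry the label of 2 weeks after crush, and the title alone marks the uninjured one. The authors typed each barcode as oligodendrocyte progenitor cell (OPC), newly formed oligodendrocyte (NFO) or oligodendrocyte. There were 58 OPC, 44 NFO and 857 oligodendrocyte barcodes in the uninjured library and 17, 100 and 293 in the injured library. Marker levels are a description of the types and no check of them, because the authors typed cells with Pdgfra, Fyn, Mag and Mbp, which are among the markers. The summed level of 6 OPC markers was 9689 CPM (UMIs of a gene scaled by all UMIs of the class) in uninjured OPCs and 28.0 in uninjured oligodendrocytes. That of 10 markers of mature oligodendrocytes was 5247 and 67900 CPM. Uninjured NFOs had 3686 CPM of 6 NFO markers and 3676 CPM of the OPC markers, and injured NFOs 5499 and 2731 CPM.

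Vesicle release brings a loaded vesicle to the plasma membrane and fuses it there. Munc13 proteins, encoded by the Unc13 genes, prime the vesicle, Munc18 proteins such as the product of Stxbp3 hold syntaxins, and synaptotagmins (Syt) bind the membrane and in part sense calcium. The SNARE proteins of the vesicle (Vamp2, Vamp3) and of the target membrane (Snap25) then zip together. Neurons use this machinery for transmitter release, and glial cells use relatives of it to deliver membrane, receptors and secreted factors, myelin proteins included.

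Promoter sequences from RefSeq (GRCm38.p6, 250 bases before to 50 bases after the annotated start, 5′ to 3′ along the gene's own strand) matched 4 of the 8 genes: Unc13c, Unc13b, Stxbp3 and Syt11. Syt4, Snap25, Vamp2 and Vamp3 were not matched. The promoters of 3 of the 4 matched genes are printed because these genes show the different courses described below: Unc13c was nearly absent after injury, Stxbp3 was higher in injured NFOs, and Syt11 was found in all types and both libraries. Capitals mark a match to CCAAT, which here lies on the opposite strand and reads ATTGG.
Unc13c, chr9:73968988-73969287, minus strand: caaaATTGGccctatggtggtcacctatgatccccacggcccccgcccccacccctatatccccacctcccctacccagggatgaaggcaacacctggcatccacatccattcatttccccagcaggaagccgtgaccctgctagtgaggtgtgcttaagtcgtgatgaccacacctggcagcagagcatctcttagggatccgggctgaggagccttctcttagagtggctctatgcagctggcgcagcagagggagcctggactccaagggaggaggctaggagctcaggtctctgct
Stxbp3, chr3:108840453-108840752, minus strand: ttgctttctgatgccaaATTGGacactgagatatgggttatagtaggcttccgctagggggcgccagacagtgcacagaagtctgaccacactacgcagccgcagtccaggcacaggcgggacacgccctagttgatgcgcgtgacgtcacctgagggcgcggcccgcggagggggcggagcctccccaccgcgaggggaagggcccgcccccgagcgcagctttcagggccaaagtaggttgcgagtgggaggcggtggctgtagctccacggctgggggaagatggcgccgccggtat
Syt11, chr3:88772550-88772849, minus strand: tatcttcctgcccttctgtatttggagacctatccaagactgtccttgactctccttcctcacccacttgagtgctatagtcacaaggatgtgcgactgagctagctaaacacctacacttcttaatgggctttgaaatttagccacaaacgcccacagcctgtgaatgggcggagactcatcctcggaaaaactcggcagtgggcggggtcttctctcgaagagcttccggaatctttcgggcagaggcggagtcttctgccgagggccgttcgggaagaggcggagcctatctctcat
The windows were searched on both strands for the CCAAT box. They were also searched for the TATA box (TATAAA). The SOX-type motif was searched as ACAAAG. A match to CCAAT began at base 5 in Unc13c and at base 18 in Stxbp3, counted from the first printed base, and none of the 3 motifs was found in Syt11. Of 32851 mouse promoters of this length, 37.4% hold the first motif, 13.6% the TATA box and 18.7% the SOX-type motif. The GC content was 59.3% with 6 CG dinucleotides in Unc13c, 65.3% with 25 in Stxbp3 and 53% with 14 in Syt11. The Syt11 window lies inside the GENCODE span of the gene.

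All 8 genes have coordinates in the mouse build GRCm38 (GENCODE vM21). Unc13c (ENSMUSG00000062151) lies on chromosome 9 from 73479422 to 73968966, minus strand, Unc13b (ENSMUSG00000028456) on chromosome 4 from 43058953 to 43264871, plus strand, and Stxbp3 (ENSMUSG00000027882) on chromosome 3 from 108793176 to 108840526, minus strand. Syt4 (ENSMUSG00000024261) lies on chromosome 18 from 31437808 to 31447406, minus strand, and Syt11 (ENSMUSG00000068923) on chromosome 3 from 88744700 to 88775164, minus strand. Snap25 (ENSMUSG00000027273) lies on chromosome 2 from 136713453 to 136782428, plus strand, Vamp2 (ENSMUSG00000020894) on chromosome 11 from 69088490 to 69092384, plus strand, and Vamp3 (ENSMUSG00000028955) on chromosome 4 from 151047300 to 151057963, minus strand. Vamp3 sits inside Camta1 on the same strand, a gene with 541 UMIs in both libraries, so its count is uncertain where reads fall on both. Syt4 overlaps the antisense gene Gm26658, which had 1 UMI.

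The libraries held 4414834 UMIs (uninjured) and 2771797 UMIs (injured) and shared 0 barcode sequences. A barcode had a median of 3060 UMIs in uninjured and 1268 in injured oligodendrocytes, 1259.5 and 1258.5 in NFOs, and 2290 and 4120 in OPCs. Barcodes in which the nuclear RNA Malat1 made up under 0.5% of UMIs were 5.60% of uninjured and 45.4% of injured oligodendrocytes, and 63.6% and 77% of NFOs. The labels state pooled males and females, but Xist had a UMI in 1 of 959 uninjured and 0 of 410 injured barcodes, while Y-linked genes had one in 572 and 156. The summed level of 10 macrophage and microglia markers was higher in the injured library, at 261 against 21.2 CPM in oligodendrocytes and 654 against 10.6 CPM in NFOs. All 10 had a UMI in both injured types, while 9 of 10 were at 0 in uninjured NFOs and 1 of 10 in uninjured oligodendrocytes. The part of free RNA, depth and these differences in the results below was not tested. With 1 library per condition there is no replicate check, and every interval below is a 95% interval for counting error only.

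Unc13c, which encodes the priming factor Munc13-3, known best from cerebellar granule cells, was present in every uninjured type and nearly absent after ONC. In the uninjured library it had 25 UMIs in OPCs (146 CPM, 94.4 to 215), 9 UMIs in NFOs (95.6 CPM, 43.7 to 182) and 314 UMIs in oligodendrocytes (75.7 CPM, 67.5 to 84.5). In the injured library it had 0 UMIs in OPCs, 1 in NFOs (2.84 CPM) and 1 in oligodendrocytes (0.434 CPM, 0.0110 to 2.42). The 3 uninjured levels overlapped in their intervals from each type to the next, and all 3 intervals lay above those of the 3 injured classes.

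The ratio of injured to uninjured CPM of Unc13c was 0.00574 in oligodendrocytes (0.000145 to 0.0322), a 174-fold lower level with a counting interval of 31.0 to 6903. In NFOs the ratio was 0.0297 (0.000678 to 0.215) on 1 against 9 UMIs. Over all barcodes the uninjured OPC level was 1.93 times the oligodendrocyte level (1.23 to 2.90). With each barcode thinned to 500 UMIs, uninjured OPCs had 357 CPM and uninjured oligodendrocytes 138 CPM. Thinned to 1000 UMIs they had 136 and 123 CPM, with shallower barcodes left out at both depths. The intervals of both types overlapped at both depths, so a higher level in OPCs was not shown at equal depth. The Unc13c ratio in oligodendrocytes ranked 5 from the lowest of 8591 genes.

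Unc13c UMIs were spread over many uninjured oligodendrocytes. A UMI was found in 170 of 857 barcodes (19.8%, 17.2 to 22.7), of which 111 had 1 UMI, 27 had 2 and 32 had 3 or more, with a highest count of 17 in a barcode of 9346 UMIs. In the other uninjured types it was found in 19 of 58 OPCs (32.8%) and 6 of 44 NFOs (13.6%). After injury a UMI was found in 1 of 293 oligodendrocytes (0.341%), 1 of 100 NFOs (1%) and 0 of 17 OPCs. A count of 0 allows a share of up to 17.6% there by a floor of 3 barcodes, with an exact upper limit of 19.5%, and such limits concern barcodes with a UMI and not cells that express the gene.

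The level of Unc13c in uninjured oligodendrocytes was lower in deeper barcodes. It was 283 CPM in barcodes under 1000 UMIs, 157 CPM from 1000 to under 3000, 84.5 CPM from 3000 to under 10000 and 32.4 CPM in barcodes of 10000 UMIs or more, and of these intervals those of the first 2 groups overlapped. Across the same groups the share of barcodes with a UMI ran from 14.0% to 23.7%, and the UMIs per barcode from 0.197 to 0.482. The Unc13c count of a barcode therefore grew far less than its depth.

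The low level after injury was present at every depth. The injured oligodendrocytes had 1 Unc13c UMI in 133 barcodes under 1000 UMIs and 0 in the 46, 35 and 79 barcodes of the 3 deeper groups, which hold 79, 145 and 59 UMIs in the uninjured library. In the deepest group the ratio was at most 0.0601 by its interval. With each barcode thinned to 500 UMIs, Unc13c was found in 5.85% of 838 uninjured oligodendrocytes, with 19 shallower barcodes left out, and in 0 of 293 injured ones, which allows up to 1.02% by the floor (exact upper limit 1.25%). Barcodes poor in Malat1 had a higher Unc13c level in the uninjured library, at 399 CPM (265 to 577) against 70.1 CPM (62.2 to 78.7) in the rest. Among barcodes with Malat1 at 0.5% of UMIs or more, Unc13c had 286 UMIs in 809 uninjured and 0 in 160 injured oligodendrocytes.

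**Figure D1:**
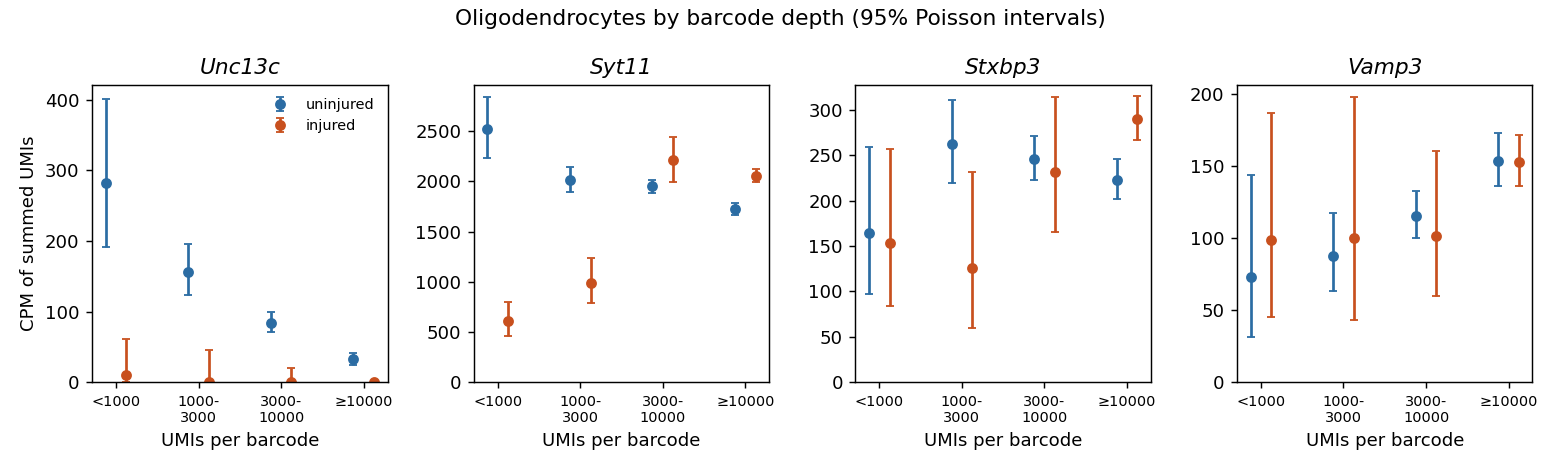
Level of 4 of the genes (CPM of summed UMIs, y axis) in oligodendrocytes grouped by the UMIs of the barcode (x axis), in the uninjured (blue) and injured (orange) library, with 95% Poisson intervals. Unc13c runs from 283 to 32.4 CPM with depth in the uninjured library and lies near 0 in the injured one, while Syt11 is lower in the injured library only in the 2 shallower groups.

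Unc13b, which encodes the related and more widely expressed priming factor Munc13-2, had a low level in both libraries. It had 42 UMIs in uninjured oligodendrocytes (10.1 CPM, 7.30 to 13.7) and 28 in injured ones (12.2 CPM, 8.08 to 17.6), a ratio of 1.20 (0.717 to 1.98). By depth the ratio was 1.58 (0.385 to 4.90) from 1000 to under 3000 UMIs, 3.57 (1.27 to 8.86) from 3000 to under 10000 and 2.64 (0.993 to 8.18) at 10000 or more, on 4, 7 and 17 injured UMIs. The pooled ratio thus lay below that of each of these depth groups. The other 4 classes held 1 or 2 UMIs each, and all 6 intervals overlapped. Unc13a, the main form of brain synapses, had 15 UMIs in uninjured and 5 in injured oligodendrocytes.

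Stxbp3 encodes Munc18c, the partner of syntaxin 4 in regulated exocytosis outside synapses. Over all barcodes its level was highest in oligodendrocytes of both libraries, and it was found in NFOs mainly after injury. It had 978 UMIs in uninjured oligodendrocytes (236 CPM, 221 to 251) and 631 in injured ones (274 CPM, 253 to 296). In NFOs it had 2 UMIs in the uninjured library (21.2 CPM, 2.57 to 76.8), both in 1 barcode, and 67 UMIs in the injured library (190 CPM, 148 to 242), in 27 of 100 barcodes. In OPCs it had 9 UMIs (52.5 CPM) and 5 UMIs (42.5 CPM).

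The injured NFO level of Stxbp3 was thus above the OPC levels and its interval reached into that of the uninjured oligodendrocytes. Thinned to 500 UMIs, injured NFOs had 160 CPM (69.1 to 315) and injured oligodendrocytes 164 CPM (105 to 244). Thinned to 1000 UMIs, with shallower barcodes left out, they had 172 CPM (85.8 to 308) and 288 CPM (210 to 383). The intervals overlapped at both depths. The NFO ratio of Stxbp3, injured to uninjured, was 8.96 (2.39 to 75.5). In the uninjured library the NFO level was 0.0901 of the oligodendrocyte level (0.0109 to 0.327) and the OPC level was 0.223 of it (0.102 to 0.425). In NFO barcodes under 1000 UMIs it had 6 UMIs in 36 injured against 0 in 14 uninjured barcodes, and from 1000 to under 3000 UMIs 10 in 43 against 0 in 22. With NFOs thinned to 500 UMIs, Stxbp3 was found in 8 of 100 injured barcodes and 0 of 42 uninjured ones. The latter allows up to 7.14% by the floor with an exact upper limit of 8.41%, so the shares could not be told apart at this depth.

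In oligodendrocytes the ratio of Stxbp3 depended on depth. It was 1.16 over all barcodes (1.05 to 1.29), 1.30 in those of 10000 UMIs or more (1.14 to 1.48) and 0.479 in those from 1000 to under 3000 (0.224 to 0.909). None of these values but the last passed a 2-fold difference. In Malat1-poor injured oligodendrocytes the Stxbp3 level was 93.6 CPM (48.4 to 164) against 285 CPM (263 to 308) in the rest.

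Syt4, which encodes a synaptotagmin whose main calcium-binding domain is altered and which in neurons and glia sits on secretory organelles, was found mostly in NFOs of the injured library. It had 166 UMIs there (472 CPM, 403 to 549) in 21 of 100 barcodes. It had 2 UMIs in uninjured NFOs (21.2 CPM, 2.57 to 76.8), both in 1 of 44 barcodes, and 24 in injured oligodendrocytes (10.4 CPM, 6.68 to 15.5) in 5 of 293 barcodes. It had 0 UMIs in 857 uninjured oligodendrocytes, which allows a share of up to 0.350% by the floor (exact upper limit 0.430%). It had 0 in the OPCs of both libraries, with floors of 5.17% (uninjured) and 17.6% (injured) and exact upper limits of 6.16% and 19.5%.

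The Syt4 level of injured NFOs lay above every other interval. It was 22.2 times that of uninjured NFOs (6.05 to 185) and 45.3 times that of injured oligodendrocytes (29.4 to 72.6). The level of injured oligodendrocytes was 14.4 times a floor of 3 UMIs over the uninjured ones. By the exact interval of the ratio it was at least 10.8-fold higher.

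Few barcodes carried most of the Syt4 UMIs. In injured NFOs 9 barcodes had 1 UMI, 1 had 2 and 11 had 3 or more, and the highest 2 had 58 and 50 UMIs, which is 65.1% of the total. Without them the level was 198 CPM, 9.31 times that of uninjured NFOs (2.46 to 78.7). The ratio was 8.21 (2.12 to 70.3) among barcodes under 8000 UMIs. It was 20.2 (5.50 to 169) among those with Malat1 at 0.5% of UMIs or more. The last value keeps the highest 2 barcodes, because no injured NFO of 10000 UMIs or more was poor in Malat1. It also leaves out 63.6% of the 44 uninjured NFOs. In injured oligodendrocytes 17 of the 24 UMIs lay in 1 barcode of 10014 UMIs, and the values of 14.4 and 10.8 above include it.

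The share of injured NFOs with a Syt4 UMI followed depth. It was 1 of 36 barcodes under 1000 UMIs, 6 of 43 from 1000 to under 3000, 7 of 13 from 3000 to under 10000 and 7 of 8 barcodes of 10000 UMIs or more, and the level was 38.9, 175, 376 and 666 CPM. Uninjured NFOs had 2 Syt4 UMIs in 22 barcodes from 1000 to under 3000 UMIs and 0 in the 6 and 2 barcodes of the deeper groups. The deeper NFO barcodes thus held Syt4 in the injured library and not in the uninjured one, where they were few. Thinned to 500 UMIs, Syt4 was found in 7% of injured (2.86 to 13.9) and 2.38% of uninjured NFOs (0.0603 to 12.6), and thinned to 1000 UMIs in 20.3% of 64 injured (11.3 to 32.2) and 3.33% of 30 uninjured NFOs (0.0844 to 17.2). The intervals of both libraries overlapped at both depths.

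**Figure D2:**
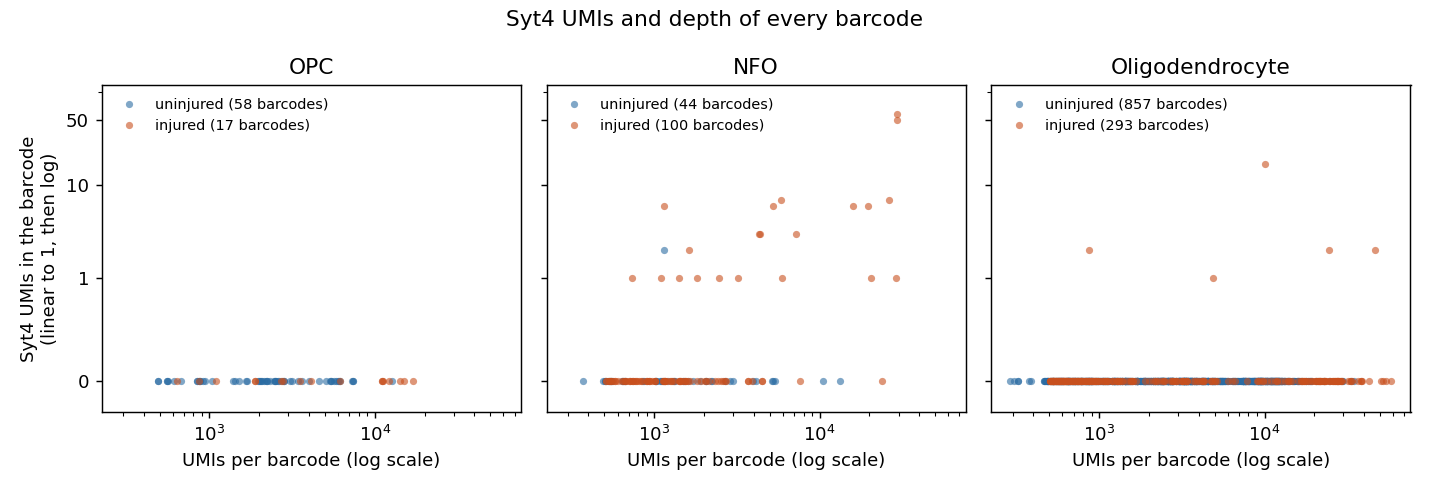
Syt4 UMIs of each barcode (y axis, linear to 1 and then log) against its UMIs in all (x axis, log scale) in OPCs, NFOs and oligodendrocytes of the uninjured (blue) and injured (orange) library. Syt4 lies in 21 injured NFO barcodes, with the highest 2 at 58 and 50 UMIs, in 1 uninjured NFO and in 5 injured oligodendrocytes.

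Injured NFOs with a Syt4 UMI also differed in their markers from those without. The barcodes were split by a Syt4 UMI before thinning, and the markers alone were counted at 1000 UMIs per barcode. The summed level of 10 mature oligodendrocyte markers was 28650 CPM (26352 to 31095) in 20 barcodes with Syt4 and 18250 CPM (17009 to 19557) in 44 without. The 6 NFO markers had 5900 CPM (4884 to 7066) with Syt4 and 4409 CPM (3810 to 5075) without, and the 6 OPC markers 2100 and 2182 CPM. The barcodes with Syt4 had a median of 5497 UMIs before thinning and those without 1540. The split is thus also one by depth, which thinning the markers does not undo. Both groups come from 1 library, so these are differences between barcodes and not between replicates.

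Syt11 encodes a synaptotagmin without calcium binding that has been tied to membrane trafficking and lysosomes. It was found in all 6 classes, and over all barcodes its levels were highest in oligodendrocytes. It had 7770 UMIs in uninjured oligodendrocytes (1873 CPM, 1831 to 1915) and 4543 in injured ones (1973 CPM, 1916 to 2031). In NFOs it had 967 CPM (778 to 1187) uninjured and 821 CPM (729 to 922) injured, and in OPCs 940 CPM (800 to 1097) and 757 CPM (608 to 931). The 4 levels of NFOs and OPCs did not differ beyond their intervals, and all 4 lay under those of the oligodendrocytes.

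Within the injured library the NFO level of Syt11 was 0.416 of the oligodendrocyte level (0.368 to 0.469). In the uninjured library it was 0.516 (0.415 to 0.635) in NFOs and 0.502 (0.427 to 0.587) in OPCs. Thinned to 500 UMIs, NFOs had 905 CPM uninjured and 580 CPM injured, against 1971 and 1222 CPM in oligodendrocytes. NFO barcodes were more often poor in Malat1. Malat1-poor oligodendrocytes had 998 CPM (778 to 1261) uninjured and 460 CPM (350 to 594) injured. These lay near or below the NFO levels over all barcodes, and the part of Malat1 in the NFO ratios was not tested. Over all oligodendrocyte barcodes the ratio of injured to uninjured was 1.05 (1.02 to 1.09).

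That ratio joined opposite differences at low and high depth. It was 0.243 (0.179 to 0.325) in oligodendrocytes under 1000 UMIs, 0.492 (0.386 to 0.619) from 1000 to under 3000, 1.13 (1.02 to 1.26) from 3000 to under 10000 and 1.19 (1.14 to 1.25) at 10000 UMIs or more. As a mean of the CPM of each barcode, which gives shallow barcodes equal weight, the ratio was 0.586. The shallow injured barcodes are mostly poor in Malat1, 75.9% of those under 1000 UMIs against 12.1% in the uninjured library, and in Malat1-poor injured oligodendrocytes the Syt11 level was 460 CPM (350 to 594) against 2062 CPM (2002 to 2124) in the rest.

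Snap25, which encodes the target-membrane SNARE of synapses, was highest in uninjured OPCs. It had 26 UMIs there (152 CPM, 99.1 to 222) in 17 of 58 barcodes, 3 UMIs in injured OPCs (25.5 CPM, 5.26 to 74.6), 2 in uninjured NFOs (21.2 CPM, 2.57 to 76.8) and 4 in injured NFOs (11.4 CPM, 3.10 to 29.1). In oligodendrocytes it had 13 UMIs in the uninjured library (3.13 CPM, 1.67 to 5.36) and 0 in the injured one, which allows a share of up to 1.02% of barcodes by the floor (exact upper limit 1.25%). The uninjured OPC level lay above all others and was 48.4 times that of uninjured oligodendrocytes (24.0 to 103).

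Snap25 is also a marker of neurons, whose axons run through the nerve. Of the 12 other neuron markers 8 had 0 UMIs in uninjured OPCs, among them Rbfox3, Stmn2 and Slc17a6. Syt1 and Tubb3 had 2 UMIs each, Nefm had 1, and 61 of the 66 UMIs of the list were of Gap43. Whether the Snap25 UMIs came from the OPCs or from RNA of axons was not tested. No uninjured OPC had more than 2 Snap25 UMIs, and the OPCs with one had a median of 3629 UMIs against 2135 in those without. Of the 19 uninjured OPCs with Unc13c, 5 also had Snap25 (26.3%), against 30.8% of those without Unc13c.

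Vamp2 and Vamp3, which encode the vesicle SNAREs of synapses and of recycling endosomes, were found in every class. Vamp2 had 382 UMIs in uninjured oligodendrocytes (92.1 CPM, 83.1 to 102) and 241 in injured ones (105 CPM, 91.9 to 119), a ratio of 1.14 (0.964 to 1.34). In the other 4 classes Vamp2 ran from 63.7 CPM in uninjured NFOs to 85.0 CPM in injured OPCs, and all 6 intervals overlapped.

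Vamp3 had 530 UMIs in uninjured oligodendrocytes (128 CPM, 117 to 139) and 334 in injured ones (145 CPM, 130 to 161), a ratio of 1.14 (0.987 to 1.30). It had 117 CPM in uninjured and 125 CPM in injured NFOs, 102 CPM (52.7 to 178) in injured OPCs and 35.0 CPM (12.9 to 76.2) on 6 UMIs in uninjured OPCs. The last of these was the lowest of the 6 levels, at 0.274 of the uninjured oligodendrocyte level (0.100 to 0.601). Both genes were found together in 145 uninjured oligodendrocytes, which is 55.6% of those with Vamp2 and 52.0% of those with Vamp3, and the barcodes with Vamp2 had a median of 8454 UMIs against 2247.5 in those without.

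**Figure D3:**
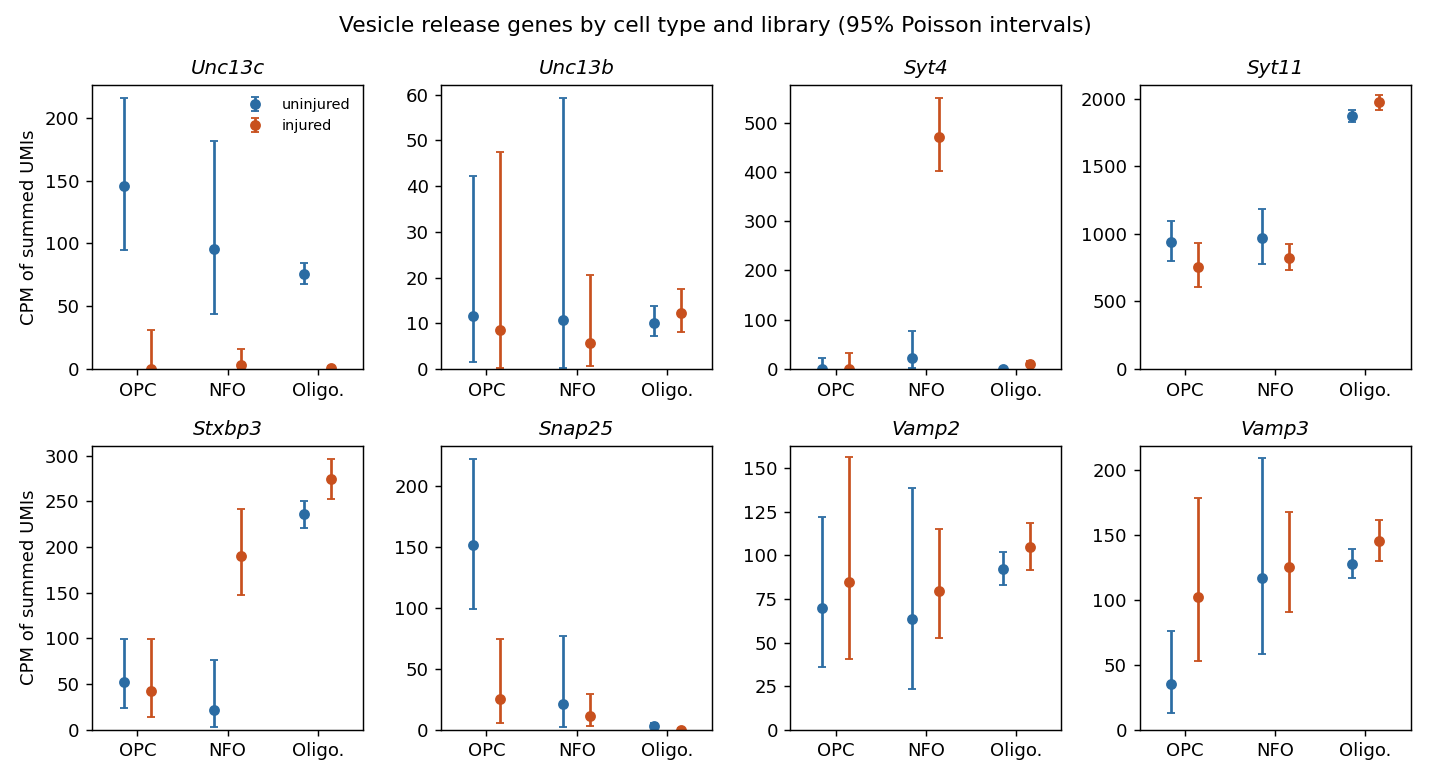
Level of the 8 genes (CPM of summed UMIs, y axis, with its own scale in each panel) in OPCs, NFOs and oligodendrocytes (Oligo.) of the uninjured (blue) and injured (orange) library, with 95% Poisson intervals. Unc13c lies near 0 in all injured types, Syt4 stands out in injured NFOs at 472 CPM, Snap25 in uninjured OPCs at 152 CPM, and Syt11 is highest in oligodendrocytes of both libraries.

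To set these values beside all genes, a gene was counted as different where its ratio was at least 2-fold in either direction with an interval that left out 1, among genes with at least 50 UMIs in both classes together. In oligodendrocytes 6 of the 8 genes had enough UMIs, of which Unc13c was lower after injury and 0 were higher, where 4.06% of 8591 genes were lower and 5.98% higher. In NFOs 4 had enough UMIs, of which Syt4 and Stxbp3 were higher and 0 lower, where 12.1% of 1695 genes were higher and 4.01% lower.

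Between types the same 2-fold count was made within each library, with 5 of the genes measured in each comparison. In uninjured NFOs against oligodendrocytes Stxbp3 was lower and 0 were higher, where 8.69% of 7651 genes were lower and 10.9% higher. In injured NFOs against oligodendrocytes Syt4 was higher and Syt11 lower, where 13.4% of 6563 genes were higher and 17% lower. In uninjured OPCs against oligodendrocytes Stxbp3 and Vamp3 were lower and 0 were higher, where 12% of 7806 genes were lower and 15.2% higher. The genes were chosen with these ratios known, so nothing is read from the shares. Injured OPCs, with 17 barcodes, were under the minimum of 20 and were given as values only.

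A list of 93 genes of vesicle release, the 8 genes included, gave the wider setting, and 87 of them had a UMI and 58 at least 50. In oligodendrocytes 54 were measured, with a median ratio of injured to uninjured of 1.14 against 1.03 over all genes. Of these 6 were higher and 2 lower after injury, where 5.98% of 8591 genes were higher and 4.06% lower. Apart from Unc13c the gene that was lower was Rph3a, which encodes rabphilin, a binding partner of Rab3 on vesicles. It had 101 UMIs in uninjured and 0 in injured oligodendrocytes. The uninjured level was 18.7 times a floor of 3 UMIs over the injured class, and the exact upper limit of the ratio was 0.0670. Of the 170 uninjured oligodendrocytes with Unc13c, 32 also had Rph3a (18.8%), against 7.71% of those without, at median depths of 3448.5 and 2924 UMIs.

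The 6 list genes that were higher in injured oligodendrocytes were the SNAREs Vamp5, Stx3, Vamp8 and Snap29, the priming factor Cadps and the vesicle membrane gene Synpr. Vamp5 had 323 UMIs in the injured and 77 in the uninjured library, 140 against 18.6 CPM, a ratio of 7.56. The ratio was 5.21 for Stx3, 3.02 for Vamp8, 2.70 for Synpr, 2.36 for Cadps and 2.35 for Snap29. Most of their injured UMIs lay in the deepest barcodes (10000 UMIs or more), which held 1954074 of all 2302349 UMIs of injured oligodendrocytes. There 70 of 79 injured oligodendrocytes had Vamp5 (88.6%) against 27 of 135 uninjured ones (20%), at a ratio of 8.73 (6.05 to 13.0). From 3000 to under 10000 UMIs Vamp5 had 67.7 against 16.9 CPM, with an interval of the ratio from 1.86 to 8.09. In these deepest barcodes the 10 macrophage markers had 87.0 CPM in the injured and 20.9 CPM in the uninjured library. Among barcodes under 8000 UMIs 0 of the 37 list genes with enough UMIs counted as higher. Stx3, Snap29, Cadps and Synpr had too few UMIs in these barcodes to be counted. For these genes the 0 is therefore not read as a loss of the differences at lower depth. The ratio of Vamp5 was 1.95 (0.462 to 6.30) from 1000 to under 3000 UMIs and 2.80 (0.640 to 16.8) under 1000. That of Vamp8 was 2.37 (0.405 to 9.88) from 1000 to under 3000, with 3 against 0 UMIs under 1000. A difference of Vamp5 or Vamp8 was thus not shown in barcodes under 3000 UMIs.

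**Figure D4:**
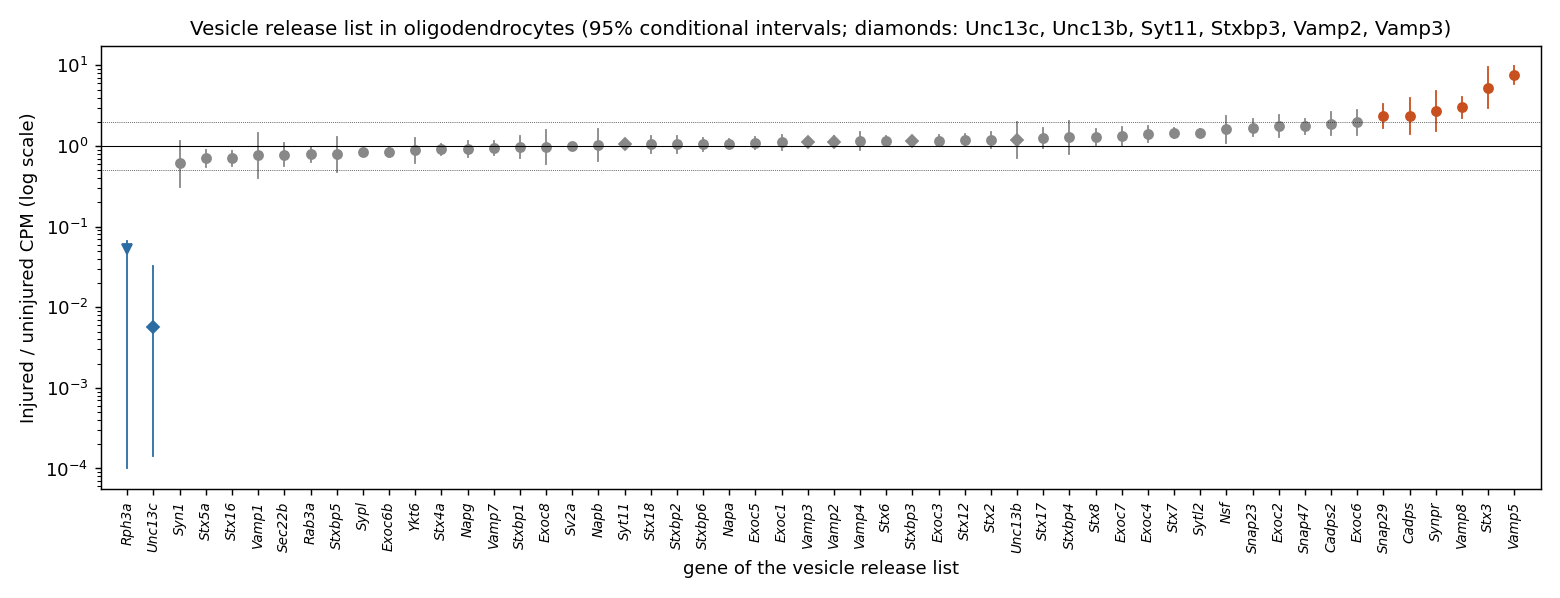
Ratio of injured to uninjured CPM in oligodendrocytes (y axis, log scale) for the list genes with at least 50 UMIs (x axis, ordered by ratio), with 95% conditional intervals cut at the lower axis limit. Unc13c and Rph3a (triangle, placed by a floor of 3 UMIs) are lower, Vamp5, Stx3, Vamp8, Synpr, Cadps and Snap29 are higher by more than 2-fold (dotted lines), and the other genes lie nearer to 1.

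In NFOs 8 list genes were measured, with a median ratio of 1.38 against 1.15 over all genes. Of these 3 were higher and 0 lower after injury, where 12.1% of 1695 genes were higher and 4.01% lower. Beside Syt4 and Stxbp3 the gene that was higher after injury was Stx7, an endosomal syntaxin, with 82 UMIs against 4 and a ratio of 5.48.

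Between types the list was counted in the same way. In uninjured NFOs 9 of 47 list genes were lower than in oligodendrocytes and 2 higher, in injured NFOs 15 of 44 were lower and 3 higher, and in uninjured OPCs 9 of 48 were lower and 5 higher. Over all genes the shares lower and higher were 8.69% and 10.9%, 17% and 13.4%, and 12% and 15.2%. By mean CPM over barcodes, where a gene counted at 2-fold without an interval, 19 list genes were lower in uninjured NFOs and 18 in OPCs. Among barcodes under 8000 UMIs 5 were lower in injured NFOs. The median ratios of the list were 0.744, 0.849 and 0.800, against 0.999, 0.998 and 1.07 over all genes. Sypl and Sv2a, which encode vesicle membrane proteins, were lower in all 3 comparisons, with ratios of 0.0808, 0.0981 and 0.115 for Sypl and 0.153, 0.267 and 0.152 for Sv2a. Sytl2, a Rab27 partner, was lower in all 3 as well, at 0.331, 0.0948 and 0.130, and so was Exoc6b, a subunit of the exocyst tether, at 0.265, 0.333 and 0.401. Stxbp6 was lower in both NFO classes, on 1 UMI in each, at 0.138 (0.00348 to 0.773) in the uninjured and 0.0348 (0.000877 to 0.196) in the injured library. Stxbp2 had 0 UMIs in uninjured NFOs against 189 in oligodendrocytes, whose level was 1.43 times a floor of 3 UMIs over the NFOs. In injured NFOs Stxbp2 had a ratio of 0.177 (0.0359 to 0.530). The other genes lower in uninjured NFOs, beside Stxbp3, were Stx6 at 0.264 (0.0544 to 0.777) and Vamp7 at 0.155 (0.00392 to 0.872). Of the 15 lower in injured NFOs, the other 4 among the lowest 10 were Cadps2, Vamp5 at 0.0203 (0.000511 to 0.114), Stx3 at 0.126 (0.00313 to 0.733) and Vamp8 at 0.165 (0.0335 to 0.494). Cadps2 had 0 UMIs against 76 in injured oligodendrocytes, whose level was 3.87 times a floor of 3 UMIs over the injured NFOs. The other genes lower in OPCs, beside Stxbp3 and Vamp3, were Stx2 at 0.127 (0.00321 to 0.719), Stx18 at 0.268 (0.0322 to 0.981) and Napa at 0.412 (0.205 to 0.742). Those higher in OPCs were Stxbp5, Nsf, Stxbp4, Exoc4 and Snap47, those higher in uninjured NFOs Vamp4 and Stx5a, and those higher in injured NFOs Rab3a and Stx2 beside Syt4.

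The genes whose levels most resembled those of Unc13c and Syt4 were sought over 16 groups of type, library and depth, by the Pearson correlation of log2(CPM + 10) among 9152 genes. For Unc13c they were Rapgef4 (r = 0.918), Kif5a (0.910), Rph3a (0.906), Ccnt1 (0.879) and mt-Nd1 (0.876). Rapgef4 had 65 UMIs in uninjured and 0 in injured oligodendrocytes, whereas Kif5a had 772 and 163. For Syt4 they were Cnksr3 (r = 0.891), Eif4g2 (0.871), Rras2 (0.870), Arhgap22 (0.855) and Parvb (0.850). Cnksr3 had 43 UMIs in injured and 8 in uninjured NFOs, and Parvb 76 and 4. The 16 groups share 2 libraries and the low groups share few UMIs, so these correlations describe the groups alone.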

How the data were processed

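The authors aligned and counted the reads of both 10x Genomics v2 libraries (build mm10, with bcl2fastq 2.17.1.14, Cell Ranger 1.3 and Seurat 4.0.3 in the submitters' processing notes), filtered and typed the cells, and deposited natural log values for the OPC, NFO and oligodendrocyte barcodes, made from a gene's share of the UMIs in a barcode, times 10000, plus 1. A table of both libraries together repeated the same values and was not used. Undoing the log gave whole UMIs (tolerance 0.001) for 100% of barcodes. There were 0 columns of other samples. They were summed by type and library to give CPM. Levels have exact Poisson, shares exact binomial (Clopper-Pearson) and ratios exact conditional 95% intervals. Ratios were computed for all genes with at least 50 UMIs in the 2 classes, and a gene counted as different at 2-fold or more with an interval that left out 1. No p-values were computed, and the paper's ANOVA was not repeated, because each condition has 1 library. Doublets were not called again. Coordinates came from GENCODE vM21 (30438 of 31053 names matched) and promoters from RefSeq (GRCm38.p6). Computations used Python 3.11.15 with scipy 1.17.1, pandas 2.3.3 and numpy 2.4.6 and were tested on simulated data. The 8 genes, the list of 93 and the markers were chosen with earlier results of these data known. Named were the 8 genes, the list genes past 2-fold (at most 10 in each direction) and the 5 genes most like Unc13c and Syt4. Depth limits, thinning, a stricter barcode filter, mean CPM over barcodes, median-ratio scaling, Malat1-poor barcodes left out, other UMI minimums and a 1.5-fold limit were tried as alternatives.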

Additional observations from a re-analysis of the deposited data

How the results depend on the processing

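No paired analysis was possible because each condition has 1 library, and for the same reason no replicate could be left out. Of 130 counts under alternatives 96 stayed within 1.5 times the value given, 157 of 212 ratios, 33 of 48 levels and 46 of 144 shares stayed within their error, and 0 counted differences turned their direction. Of the shares 98 moved, under thinning to 500 or 1000 UMIs and where a barcode had to hold at least 2 UMIs of the gene. A limit of 2 UMIs can only lower a share, and thinning can only lower it among the barcodes kept. Moves of this kind are therefore no check of the shares. With barcodes under 8000 UMIs alone, 0 members counted as higher in injured NFOs (1 had enough UMIs) and 0 in injured NFOs against oligodendrocytes (2 had enough), against 2 and 1, and 2 in place of 1 as lower in uninjured NFOs against oligodendrocytes. Thinned to 500 UMIs, 0 were higher in injured NFOs, with 0 measurable. By mean CPM over barcodes 2 members were lower in uninjured NFOs against oligodendrocytes and 1 higher in OPCs. Here and below, counts by mean CPM used the 2-fold limit alone, without an interval.

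For the list in oligodendrocytes after injury, 6 higher became 3 by mean CPM, 0 under 8000 UMIs, 0 thinned, 1 at a minimum of 200 UMIs and 12 at 1.5-fold, and 2 lower became 7, 5, 4 and 1 under the first 4 of these. In NFOs 3 higher became 5 by mean CPM and 0 under 8000 UMIs, thinned and at 200 UMIs, and 0 lower became 1 at a minimum of 20 UMIs. In uninjured NFOs against oligodendrocytes 2 higher became 0 under 8000 UMIs, 5 at 20 and 1 at 200 UMIs, and 9 lower became 19 by mean CPM. In injured NFOs against oligodendrocytes 3 higher became 5 by mean CPM, 1 under 8000 UMIs, 0 at 200 UMIs and 6 at 1.5-fold, and 15 lower became 5 under 8000 and 9 at 200 UMIs. In OPCs against oligodendrocytes 5 higher became 3 under 8000 UMIs, 12 at 20 and 0 at 200 UMIs, and 9 lower became 18 by mean CPM. Shares over all genes are not given for these alternatives. Thinning, the limit of 8000 UMIs and the minimum of 200 UMIs left fewer genes measured. A count of 0 under them is therefore not read as a loss of the differences. Nor does such a count show that the differences held.

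An alternative chosen after seeing the data left out the 2 barcodes with most UMIs of a gene over both classes, and the ratio of Syt4 in NFOs was then 9.31.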
